A study of Mus musculus with 12 samples.

Results

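The high mobility group chromatin genes *Hmga1*, *Hmga1b*, *Hmga2*, *Hmgb1*, *Hmgb2*, *Hmgb3*, *Hmgn1*, *Hmgn2*, *Hmgn3* and *Hmgn5* were followed by bulk RNA-seq in osteoblast-lineage cells sorted from the mouse metaphysis. These 10 genes were taken by name from the 32288 genes and transgenes counted, and the counts of *Hmga1* and *Hmga1b* were also added together because the pair shares most of its transcript sequence. All 10 were found in the table. The other rows whose names start with Hmga, Hmgb or Hmgn, *Hmgb4* and *Hmgb4os*, held 0 counts in every library.

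The 12 libraries fell into 4 groups, and every mouse carried *Osx-CreERT2*, a tamoxifen-activated Cre driven from the osteoblast gene *Osx* (*Sp7*), together with the *mTmG* reporter, which turns recombined cells from membrane tdTomato to membrane GFP. Juvenile *Osx*+ osteoblasts (4 libraries) came from mice of 3 weeks and adult *Osx*+ osteoblasts (4 libraries) from mice of 8 weeks, with 2 male mice pooled for each library, and cells were taken 2 days after tamoxifen on 3 consecutive days. *c-Myc*-induced osteoblasts (2 libraries) also carried *LSL-tTA* and *Col1a1::TetO–c-Myc*, so that recombination starts *c-Myc*, and *c-Myc* + *R172H* osteoblasts (2 libraries) carried in addition *Trp53-LSL-R172H*, a dominant-negative p53. These 2 groups were titled as 3 weeks old, were called 5-week-old at dissection, included both sexes according to the labels, received tamoxifen on 2 consecutive days and were sorted 7 days later, with the diaphysis trimmed by about 5 mm rather than 2 mm. To keep the transgene off beforehand, such Tet-OFF mice or pregnant females were given doxycycline or tetracycline in drinking water, which was stopped before analysis. When these 2 groups are compared with juvenile libraries, genotype therefore cannot be told apart from this treatment or the days of tamoxifen. The same holds for the interval after tamoxifen, the age at dissection, the trimming and the mouse background. Sex differed only in part. *Xist*, the RNA of the inactive X, was at 0.0456 CPM in *c-Myc* replicate 1 and 0.183 CPM in *c-Myc* + *R172H* replicate 1. It was at most 0.745 CPM in juvenile libraries, and at 233 and 211 CPM in replicate 2 of the 2 groups. The part of sex in any difference was not tested. Transgene expression was limited to cells in which Cre had acted and their progeny, and only mGFP+ cells negative for CD31, CD45 and TER119 were sorted.

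The HMG proteins are small, abundant architectural proteins of chromatin. HMGA proteins bind the minor groove of AT-rich DNA through AT-hooks, HMGB proteins bend DNA through HMG boxes and end in an acidic tail, and HMGN proteins bind the nucleosome core particle, where they compete with linker histone H1. Embryonic and dividing cells are known for high HMGA levels, which are low in most adult tissues, whereas HMGB1 and the common HMGN proteins are made by nearly all cells.

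*Hmga1* (ENSMUSG00000046711, chr17:27556497-27563674, plus strand) and *Hmga1b* (ENSMUSG00000078249, chr11:120762794-120764419, plus strand, where a single exon fills the gene) are annotated as separate protein-coding genes in GRCm38, the build called mm10. The best matching pair of transcripts (1681 bases for *Hmga1* and 1626 bases for *Hmga1b*) could be aligned over 1602 bases, of which 1599 were identical. All 3 mismatches lay in the 3′ UTR, and the 321 coding bases held 0 mismatches, so reads from the coding part cannot be given to one gene rather than the other. The 3 mismatches of the aligned part are shown with the 21 bases around each, the differing base in capitals. Reads from sequence outside the aligned part can separate the pair as well. Positions are counted from the A of the start codon as 1, and each token gives the *Hmga1* base first, then the position, then the *Hmga1b* base.
Hmga1, A562G: ccgcagcccgAcctgctgcgc
Hmga1b, A562G: ccgcagcccgGcctgctgcgc
Hmga1, A689G: aaggggccccAgccccatctc
Hmga1b, A689G: aaggggccccGgccccatctc
Hmga1, G1151T: gtgttgttttGtttttgttcc
Hmga1b, G1151T: gtgttgttttTtttttgttcc

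Reads were 86 bases long and only uniquely mapped reads were counted. Of the 86-base windows along annotated *Hmga1b* transcripts, 81.7% also occurred in a transcript of another gene, and the share was 43.8% for *Hmga1*, with the same 1259 windows shared between the pair. Pseudogenes took part in the sharing of *Hmgb1*, for which 19.5% of windows occurred in 67 other genes, 66 of them pseudogenes. Between 14.7% and 18.9% of windows were shared for *Hmgn2*, *Hmgb2*, *Hmgb3* and *Hmgn5*, and at most 7.68% for *Hmgn3*, *Hmgn1* and *Hmga2*. *Hmga1*, *Hmga2*, *Hmgb1* and *Hmgn3* also overlap genes annotated on the opposite strand, and the strand setting of the counting is not given in the sources used here, so reads from those partners cannot be told apart from theirs.

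The 250 bases before the RefSeq start (GRCm38.p6) were searched for 9 of the 10 genes, in 11 promoters, since *Hmgn3* had no entry. Motifs were read on both strands. CCAAT, the box bound by NF-Y, occurred in 5 of the 11 promoters and in 33.8% of all 32851 promoters of that length. TTTGAA, the cell cycle homology region known from genes of G2 and mitosis, occurred in 2 of 11 and in 16% of all promoters, and the 2 were those of *Hmgb2* and *Hmgb3*. CACGTG, the canonical E-box, occurred in 2 of 11 (*Hmgn2* and the second start of *Hmgb1*) and in 6.02% of all promoters. GCGGGAA, an E2F-type site, occurred in 1 of 11 (*Hmga2*) and in 3.82% of all. The upstream sequences of *Hmgb2* (chr8:57511593-57511842, plus strand) and *Hmgb3* (chrX:71555667-71555916, plus strand) are shown because both hold CCAAT and TTTGAA, each in capitals on either strand and nowhere overlapping. That of *Hmga1b* (chr11:120762544-120762793, plus strand), which held none of the 4 motifs, is shown because the copy has its own upstream sequence. A match describes letters in this window and is not a measured binding site.
Hmgb2: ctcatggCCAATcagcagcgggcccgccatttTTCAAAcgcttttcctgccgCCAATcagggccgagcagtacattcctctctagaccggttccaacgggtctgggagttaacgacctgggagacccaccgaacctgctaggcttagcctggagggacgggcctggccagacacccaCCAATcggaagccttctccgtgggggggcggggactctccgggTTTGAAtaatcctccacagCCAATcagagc
Hmgb3: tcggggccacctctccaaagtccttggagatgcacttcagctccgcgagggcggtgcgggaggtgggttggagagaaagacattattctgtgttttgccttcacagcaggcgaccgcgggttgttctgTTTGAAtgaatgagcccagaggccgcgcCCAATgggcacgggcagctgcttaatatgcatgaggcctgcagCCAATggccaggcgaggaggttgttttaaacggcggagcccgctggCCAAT
Hmga1b: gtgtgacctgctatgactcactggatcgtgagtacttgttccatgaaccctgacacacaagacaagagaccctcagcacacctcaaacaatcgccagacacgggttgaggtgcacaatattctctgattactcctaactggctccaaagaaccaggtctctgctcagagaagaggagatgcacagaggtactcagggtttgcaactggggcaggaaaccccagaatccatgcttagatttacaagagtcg

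Total counts ranged from 9066154 to 15684412 per library. Levels are given as normalised CPM, counts divided by the library total and its TMM factor, and 3 counts were taken as the floor of detection, which corresponded to 0.137 to 0.417 CPM depending on the library and covers counting error only. *Sp7* and *Runx2*, which define osteoblasts, were present in every library, at 119 to 246 CPM and 137 to 250 CPM. Of the 12 proliferation markers, 0 were called between juvenile and adult osteoblasts by edgeR or DESeq2 (0 at an unadjusted p under 0.05), and all 12 were called higher in *c-Myc*-induced than in juvenile osteoblasts. Their summed level was 107 to 212 CPM in juvenile and adult libraries and 778 to 849 CPM in the *c-Myc* and *c-Myc* + *R172H* libraries. Among the 13 chondrocyte markers 13 were called lower with *c-Myc*, and their sum ran from 44795 to 142208 CPM in adult, 18784 to 36903 in juvenile and 877 to 2122 in *c-Myc* and *c-Myc* + *R172H* libraries. The 9 osteoblast markers summed to 571206 to 839775 CPM in juvenile, 343007 to 618698 in adult, 99754 and 132191 in *c-Myc* and 56344 and 58273 in *c-Myc* + *R172H* libraries, with 7 of the 9 called lower with *c-Myc*. Most of this sum was *Col1a1* and *Col1a2*, which averaged 485198 and 223768 CPM in juvenile libraries. In juvenile over adult osteoblasts 6 of the 9 were higher and 3 lower. *Sp7* and *Runx2*, the markers not called with *c-Myc*, had log2 fold changes of -0.81 and -0.71. The 5 marrow stromal markers summed to 318 to 635 CPM without *c-Myc* and 113 to 200 CPM with it. The summed haematopoietic, erythroid, endothelial and skeletal muscle markers reached at most 12.2, 0.993, 2.03 and 3.24 CPM, and *Ptprc*, which encodes CD45, was at most 0.397 CPM. The part that cycling cells or cartilage cells have in any result below was not tested, and in bulk samples fewer cells of a type cannot be told apart from less RNA per cell.

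**Figure D1:**
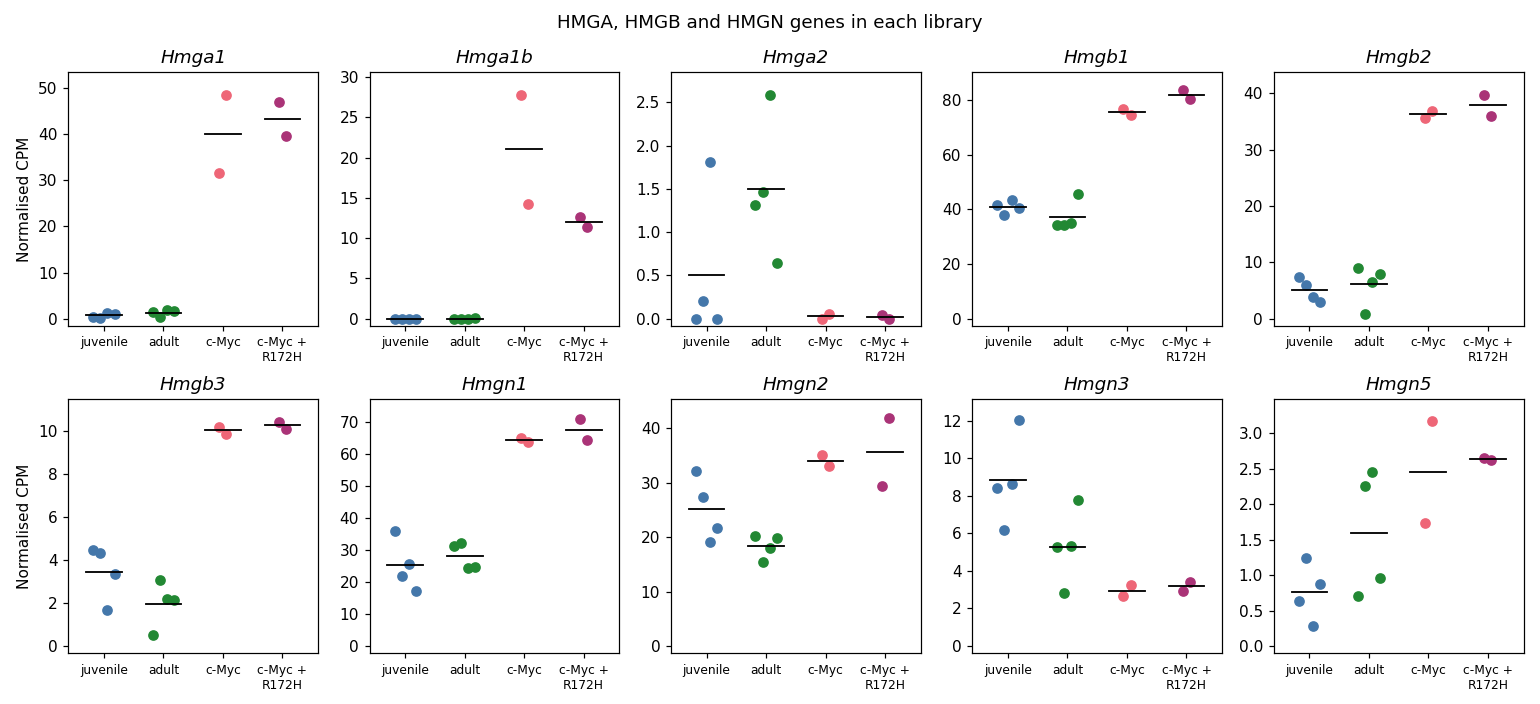
Normalised CPM of each of the 10 genes (vertical axes, linear, one scale per gene) in the 12 libraries, grouped as juvenile, adult, *c-Myc* and *c-Myc* + *R172H*. Points are libraries and black lines are group means. *Hmga1*, *Hmga1b* and *Hmgb2* stood apart in the 4 libraries with *c-Myc*, *Hmga2* reached its highest values in adult libraries, and *Hmgn3* was highest in juvenile libraries.

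*Hmga1* encodes the AT-hook protein of embryonic and proliferating cells. Its counts were 4, 1, 9 and 9 in the 4 juvenile libraries and 14, 4, 14 and 16 in the 4 adult libraries. They rose to 692 and 855 in the *c-Myc* libraries and to 1026 and 799 in the *c-Myc* + *R172H* libraries. In CPM this was 0.103 to 1.25 in juvenile, 0.451 to 1.81 in adult, 31.6 and 48.5 in *c-Myc* and 46.9 and 39.6 in *c-Myc* + *R172H* libraries. No *c-Myc* library came near any library without the transgene. Only 1 juvenile library reached the minimum of the filter on low counts, which asked for 2 libraries, so *Hmga1* entered the fit through the libraries with *c-Myc*. A gene was called in this comparison at an adjusted p below 0.05 (edgeR quasi-likelihood F test, Benjamini-Hochberg over 12588 genes) together with a log2 fold change of 1 or more in either direction. *Hmga1* was higher by a log2 fold change of 5.91 ± 0.37 (SE) in *c-Myc*-induced over juvenile osteoblasts. In *c-Myc* + *R172H* over juvenile osteoblasts the value was 6.05 ± 0.37. No p is given for *Hmga1*, since its entry into the fit depended on the libraries in which it was high.

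*Hmga1b* had 0 counts in all 4 juvenile libraries and in 3 of the 4 adult libraries, with 1 count in the remaining adult library. It had 609 and 251 counts in the *c-Myc* libraries and 276 and 229 in the *c-Myc* + *R172H* libraries. Because the juvenile libraries were all at 0, the difference has only a lower bound, taken from 3 counts in the juvenile library with the fewest normalised reads, 0.417 CPM. Against this floor *Hmga1b* was at least 50.4-fold higher in *c-Myc*-induced osteoblasts (mean 21.0 CPM) and at least 28.7-fold higher in *c-Myc* + *R172H* osteoblasts (mean 12 CPM). No p is given, since a gene at 0 in every juvenile library enters the fit only if it is high elsewhere.

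The share of the pair's reads given to *Hmga1b* was not even among the libraries that express it. It was 46.8% (95% Wilson interval 44.1 to 49.5%) of 1301 reads in *c-Myc* replicate 1, and 22.7% (20.3 to 25.3%) of 1106 reads in *c-Myc* replicate 2. The *c-Myc* + *R172H* libraries gave 21.2% (19.1 to 23.5%) of 1302 reads and 22.3% (19.8 to 24.9%) of 1028 reads. The intervals of these last 3 libraries overlapped, and that of *c-Myc* replicate 1 did not reach them. Reads had no molecular identifiers, and these intervals describe counting error alone. More of the *Hmga1b* sequence is shared than of the *Hmga1* sequence, so a share of assigned reads is not the share of transcripts. Juvenile and adult libraries held at most 17 reads of the pair each, too few for a share.

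**Figure D2:**
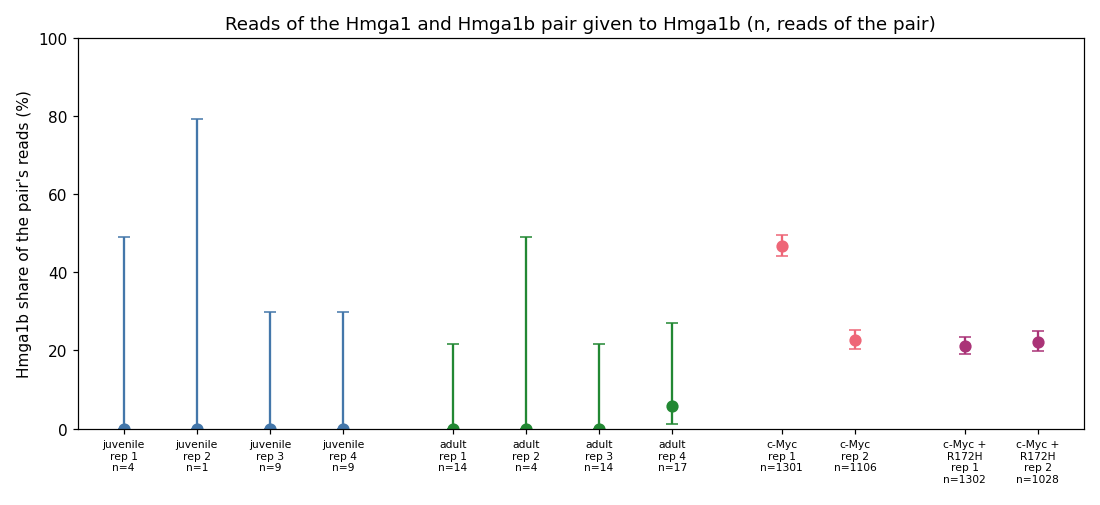
Share of the reads of the *Hmga1* and *Hmga1b* pair that was counted for *Hmga1b* (vertical axis, %) in each of the 12 libraries, with 95% Wilson intervals and the number of reads of the pair under each library. *c-Myc* replicate 1, at 46.8%, lay above the other 3 libraries with *c-Myc*, at 21.2 to 22.7%, and the wide bars of juvenile and adult libraries rest on 1 to 17 reads.

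Added together, the pair differed little between the *c-Myc* replicates. The sum was 59.4 and 62.7 CPM in the *c-Myc* libraries, 59.5 and 51.0 CPM in the *c-Myc* + *R172H* libraries, 0.103 to 1.25 CPM in juvenile and 0.451 to 1.81 CPM in adult libraries. Replicate 1 had the lower *Hmga1* and the higher *Hmga1b* of the 2 *c-Myc* libraries, and the sums differed by less than either gene did. Like *Hmga1*, the sum entered the fit through the libraries with *c-Myc*, so no p is given. It was higher by a log2 fold change of 6.52 ± 0.31 (SE) in *c-Myc*-induced over juvenile osteoblasts. In *c-Myc* + *R172H* over juvenile osteoblasts the value was 6.4 ± 0.31. Leaving out single libraries kept the first value between 6.13 and 6.91.

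*Hmga2*, the other AT-hook gene, is a known target of the *let-7* microRNAs. It had 0, 2, 13 and 0 counts in the juvenile libraries, 13, 13, 20 and 6 in the adult libraries, 0 and 1 in the *c-Myc* libraries and 1 and 0 in the *c-Myc* + *R172H* libraries. All 4 libraries with *c-Myc* were thus under the floor of 3 counts, as were 3 of the 4 juvenile libraries, and every adult library was above it. The gene did not pass the default filter on low counts in the fit with *c-Myc* and had no test there, and no fold is given because 3 juvenile libraries were under the floor as well. At this depth the floor corresponded to 0.137 to 0.170 CPM in libraries with *c-Myc*.

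*Hmgb1* encodes the most widely made HMG-box protein, which also signals outside the cell when released. It was at 41.6, 38.1, 43.4 and 40.6 CPM in juvenile libraries, 34.3, 34.2, 34.9 and 45.8 in adult, 76.8 and 74.8 in *c-Myc* and 83.6 and 80.5 in *c-Myc* + *R172H* libraries. All 4 libraries with *c-Myc* lay above every library without it. The log2 fold change in *c-Myc*-induced over juvenile osteoblasts was 0.87 ± 0.10 (SE), past the adjusted p alone (1.1e-05, edgeR) but under the fold limit. With library totals alone it was 1.70 and past the limit, where the median of all genes was itself at 0.87. In *c-Myc* + *R172H* over juvenile osteoblasts it was 1.01 ± 0.10 (adjusted p = 2.5e-06, edgeR) and was called, although it lay just past the limit. It fell to between 0.96 and 0.99 when juvenile replicate 2, *c-Myc* replicate 1, *c-Myc* replicate 2 or *c-Myc* + *R172H* replicate 1 was left out, and to 0.95 to 0.98 with RLE or upper-quartile factors, DESeq2 or a fit of the compared groups alone.

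*Hmgb2*, the HMG-box gene tied to dividing cells and to haematopoietic and germ cells, changed most after the HMGA pair. Its counts were 81, 58, 28 and 24 in juvenile libraries and 89, 8, 51 and 74 in adult libraries, against 781 and 649 in *c-Myc* and 869 and 724 in *c-Myc* + *R172H* libraries. In CPM it was 2.98 to 7.40 in juvenile, 0.903 to 9.01 in adult, 35.6 and 36.8 in *c-Myc* and 39.7 and 35.9 in *c-Myc* + *R172H* libraries. The *c-Myc* replicates differed far less from each other than either did from juvenile osteoblasts. The log2 fold change over juvenile osteoblasts was 2.78 ± 0.25 (SE) with *c-Myc* (adjusted p = 1.5e-06, edgeR) and 2.87 ± 0.25 with *c-Myc* + *R172H* (adjusted p = 9.2e-07, edgeR). Within the adult group the library with the lowest *Hmgb2*, replicate 2, also had the lowest summed proliferation markers, 107 CPM, and the library with the highest, replicate 1, had the highest, 212 CPM. Juvenile replicate 4 was lowest in both, with a sum of 110 CPM. The highest juvenile *Hmgb2* was in replicate 1 (sum 150 CPM) and the highest juvenile sum in replicate 2 (153 CPM). Replicate 1 of *c-Myc* had the higher sum (841 against 778 CPM) and the lower *Hmgb2*. Replicate 1 of *c-Myc* + *R172H* had the higher value of both (sum 849 against 789 CPM). The part of cycling cells in these values was not tested.

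*Hmgb3*, an X-linked HMG-box gene known from blood stem and progenitor cells, was at 1.67 to 4.47 CPM in juvenile, 0.506 to 3.05 in adult, 10.2 and 9.86 in *c-Myc* and 10.4 and 10.1 in *c-Myc* + *R172H* libraries. Groups with and without *c-Myc* did not overlap. Its log2 fold change over juvenile osteoblasts was 1.48 ± 0.32 (SE) with *c-Myc* (adjusted p = 0.0018, edgeR) and 1.55 ± 0.32 with *c-Myc* + *R172H* (adjusted p = 0.0012, edgeR). *Xist*, the RNA of the inactive X, was at 233 CPM in *c-Myc* replicate 2, 211 CPM in *c-Myc* + *R172H* replicate 2 and at most 1.24 CPM in the other 10 libraries, and *Hmgb3* differed little between the replicates on either side of that divide. The other X-linked member, *Hmgn5*, was at 1.73 CPM in *c-Myc* replicate 1 and 3.17 CPM in replicate 2. With *c-Myc* + *R172H* it was at 2.65 and 2.63 CPM in the same order.

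*Hmgn1*, a nucleosome-binding protein of most cells, was at 36.0, 22.0, 25.6 and 17.3 CPM in juvenile libraries, 24.3 to 32.2 in adult, 65.0 and 63.7 in *c-Myc* and 70.8 and 64.4 in *c-Myc* + *R172H* libraries. Libraries with *c-Myc* were all above those without. It was higher by 1.32 ± 0.21 (log2, SE) with *c-Myc* (adjusted p = 0.00017, edgeR) and by 1.42 ± 0.21 with *c-Myc* + *R172H* (adjusted p = 7.9e-05, edgeR).

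*Hmgn2*, the close relative of *Hmgn1*, was at 32.2, 27.3, 19.2 and 21.6 CPM in juvenile libraries, 15.3 to 20.2 in adult, 35.1 and 33.0 in *c-Myc* and 29.4 and 41.9 in *c-Myc* + *R172H* libraries. The *c-Myc* libraries lay just above the highest juvenile one, and 1 *c-Myc* + *R172H* library lay among the juvenile values. It did not pass the test, with log2 fold changes over juvenile osteoblasts of 0.41 ± 0.21 (SE) with *c-Myc* (adjusted p = 0.12, edgeR) and 0.50 ± 0.21 with *c-Myc* + *R172H* (adjusted p = 0.054, edgeR). Scaled to library totals alone the values were 1.22 and 1.53 and both were called (adjusted p = 0.001 and 0.00014, edgeR), where the median of all genes was itself at 0.87 and 1.12.

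*Hmgn3*, an HMGN gene with its highest known levels in the pancreas, brain and eye, was the member called lower. It was at 8.40, 6.19, 8.62 and 12 CPM in juvenile libraries, 5.26, 2.82, 5.30 and 7.78 in adult, 2.65 and 3.23 in *c-Myc* and 2.93 and 3.42 in *c-Myc* + *R172H* libraries. Every library with *c-Myc* lay under every juvenile library, and one adult library lay among them. The log2 fold change over juvenile osteoblasts was -1.60 ± 0.34 (SE) with *c-Myc* (adjusted p = 0.0017, edgeR) and -1.46 ± 0.34 with *c-Myc* + *R172H* (adjusted p = 0.0027, edgeR). Scaled to library totals alone, which moved the median of all genes by 0.87 and 1.12 in these comparisons, the values were -0.76 and -0.40 and the call was lost (adjusted p = 0.068 and 0.29, edgeR).

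*Hmgn5*, an X-linked HMGN gene with a long acidic tail, was the lowest of the HMGN genes in all 12 libraries. Like *Hmga1* it entered the fit through the libraries with *c-Myc*, so its p-values below are a description and not support for a difference. It had 7, 12, 2 and 7 counts in juvenile, 7, 20, 19 and 9 in adult, 38 and 56 in *c-Myc* and 58 and 53 in *c-Myc* + *R172H* libraries. Its CPM of 1.73 and 3.17 in *c-Myc* libraries were above the juvenile range of 0.278 to 1.24 and across the adult range of 0.708 to 2.46. The log2 fold change over juvenile osteoblasts was 1.64 ± 0.59 (SE) with *c-Myc* (adjusted p = 0.032, edgeR) and 1.78 ± 0.58 with *c-Myc* + *R172H* (adjusted p = 0.020, edgeR). Both calls rested on single libraries. The first was lost without juvenile replicate 1 (adjusted p = 0.054), *c-Myc* replicate 1 (0.060), *c-Myc* replicate 2 (0.33), *c-Myc* + *R172H* replicate 1 (0.073) or *c-Myc* + *R172H* replicate 2 (0.072), all by edgeR. The second was lost without *c-Myc* + *R172H* replicate 1 (0.12) or replicate 2 (0.12). Fitted on the compared groups alone, both lost the call (0.092 and 0.056), and the first also lost it in a fit of all 12 libraries (0.056).

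Counted together, 9 of the 10 genes passed the filter for the *c-Myc* comparison, *Hmga2* being the exception. Of these, 6 were called higher (*Hmga1*, *Hmga1b*, *Hmgb2*, *Hmgb3*, *Hmgn1* and *Hmgn5*), where 18.4% of all genes tested were called higher, and 1 was called lower, where 16% of all were. By the adjusted p alone 7 were higher, against 28.4% of all genes. Against juvenile osteoblasts, *c-Myc* + *R172H* osteoblasts had 7 of the 9 called higher, the same 6 genes and *Hmgb1*, where 19.6% of all genes were, and 1 called lower, where 17.9% were. Both comparisons used the same juvenile libraries, so they are not independent of each other. *Hmga1*, *Hmga1b* and *Hmgn5* passed the filter only through libraries with *c-Myc*, which favours a call of higher, and the counts of 6 and 7 include them. The other 6 genes passed through their juvenile libraries alone. Of these 3 were called higher and 1 lower with *c-Myc*, and 4 higher and 1 lower with *c-Myc* + *R172H*. The share called among all genes that passed in that way was not counted, so these counts have no matching background.

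**Figure D3:**
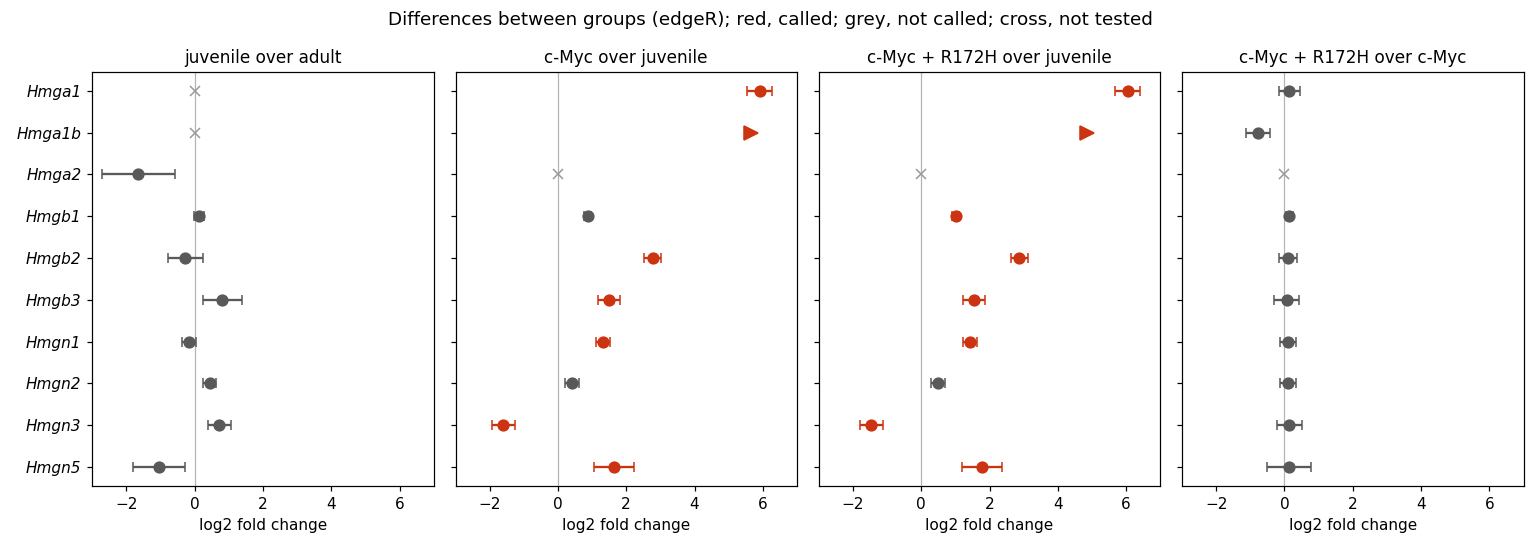
Log2 fold change of each gene (horizontal axes, one panel per comparison) with its SE as bars. Red marks genes that passed the calling rule, grey those that did not, and crosses at 0 stand for genes not tested; for *Hmga1b* against juvenile libraries the red triangle marks the lower bound against the floor, 5.65 and 4.85 on the log2 scale. The panels against juvenile osteoblasts hold 1 red point to the left of 0, *Hmgn3*, and the panels of age and of R172H hold no red point.

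Adding *R172H* to *c-Myc* was compared in the same fit, at an adjusted p below 0.05 with no fold limit. Of the 9 genes tested, 0 were called by edgeR, where 0.00794% of all genes were called higher and 0.461% lower. At an unadjusted p under 0.05 the count was also 0, against 4.68% of all genes, and DESeq2 called 0. Every member had an adjusted p of 1, and 2 genes, *Hmga1b* and *Hmgb1*, had groups that did not overlap, as was so for 45% of all genes tested. The values ranged from -0.78 ± 0.35 (SE) for *Hmga1b* to 0.14 ± 0.11 for *Hmgb1*, and the other 7 genes lay between 0.06 and 0.14. For *Hmga1b*, at 27.8 and 14.2 CPM with *c-Myc* and 12.6 and 11.4 CPM with *c-Myc* + *R172H*, the difference depended on *c-Myc* replicate 1. Without that library the log2 value was -0.25. The sum of *Hmga1* and *Hmga1b* differed by -0.11 ± 0.25 (SE) on the log2 scale, and by 0.10 when libraries were scaled to their totals alone. With 2 libraries a group, these errors leave changes of modest size undetectable.

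Juvenile and adult osteoblasts were compared over 8 libraries, at an adjusted p below 0.05. Of the 10 genes, 8 passed the filter and 0 were called by edgeR, where 1.89% of all 11345 genes were called higher in juvenile libraries and 3.23% lower. At an unadjusted p under 0.05 there were 2 of 8, *Hmgn2* and *Hmgn3*, a share near the 19.7% of all genes, and DESeq2 called 0. *Hmgn2* had a log2 fold change of 0.44 ± 0.19 (SE) in juvenile over adult osteoblasts (adjusted p = 0.20, edgeR), with 3 of the 4 juvenile libraries above the adult maximum of 20.2 CPM. *Hmgn3* had 0.72 ± 0.33 (adjusted p = 0.24, edgeR). The widest difference was that of *Hmga2*, -1.65 ± 1.07 (adjusted p = 0.44, edgeR), with group means of 0.503 ± 0.875 CPM (SD, n = 4) in juvenile and 1.5 ± 0.807 CPM (SD, n = 4) in adult libraries. *Hmgn5* had -1.04 ± 0.76, *Hmgb3* 0.81 ± 0.56, *Hmgb2* -0.27 ± 0.51, *Hmgn1* -0.17 ± 0.20 and *Hmgb1* 0.12 ± 0.14, none past the test. *Hmgb1* turned to -0.14 when libraries were scaled to their totals alone, where the median of all genes was -0.24.

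*Hmga1* and *Hmga1b* were below the filter in the age comparison. The sum of the pair averaged 0.709 ± 0.562 CPM (SD, n = 4) in juvenile and 1.37 ± 0.642 CPM (SD, n = 4) in adult libraries. An exact two-sided permutation test over the 70 arrangements of the libraries gave p = 0.17, where the smallest possible p is 0.029. Groups overlapped for all 8 genes tested and for the sum, where 12.9% of all genes tested had groups that did not.

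Set side by side per length, as CPM per kb of annotated exon, the order of the genes differed between groups. In juvenile osteoblasts *Hmgn2* (8.20 ± 1.91 CPM per kb, SD, n = 4), *Hmgb1* (8.15 ± 0.44) and *Hmgn1* (7.82 ± 2.47) were highest and did not differ beyond their spread. *Hmgn3* followed at 4.72 ± 1.29, then *Hmgb2* at 1.69 ± 0.67 and *Hmgb3* at 1.55 ± 0.58, which were within each other's range. *Hmgn5* (0.391 ± 0.208) and *Hmga1* (0.334 ± 0.264) were lower and overlapped, *Hmga2* was at 0.0743 ± 0.129, and *Hmga1b* was listed at 0. Adult osteoblasts had *Hmgn1* at 8.74 ± 1.29 and *Hmgb1* at 7.43 ± 1.13, which overlapped, then *Hmgn2* at 6.0 ± 0.74 and *Hmgn3* at 2.83 ± 1.08.

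With *c-Myc*, *Hmga1* moved from the low end of this order to the top. Levels per length there were 20.0 ± 0.284 CPM per kb (SD, n = 2) for *Hmgn1* and 18.8 ± 5.61 for *Hmga1*, which overlapped, and 15.1 ± 0.284 for *Hmgb1*. *Hmga1b* (12.9 ± 5.90), *Hmgb2* (12.1 ± 0.267) and *Hmgn2* (11.1 ± 0.476) came next, with *Hmga1b* spanning the other two, and *Hmgb3* was at 4.49 ± 0.10. *Hmgn3* fell in rank to 1.57 ± 0.221, beside *Hmgn5* at 1.27 ± 0.526. In *c-Myc* + *R172H* osteoblasts *Hmgn1* (21.0 ± 1.41) and *Hmga1* (20.4 ± 2.43) again led and overlapped, and *Hmga1b* was at 7.37 ± 0.550. For *Hmga1* and *Hmga1b* the length includes sequence in which reads of the pair are not unique, so their levels per length are understated. The part of 86-base windows shared with another gene was 81.7% for *Hmga1b* and 43.8% for *Hmga1*, so the 2 are not understated alike. No level per unique length was computed, and the place of *Hmga1b* in this order, also against *Hmga1*, is not settled by these values.

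**Figure D4:**
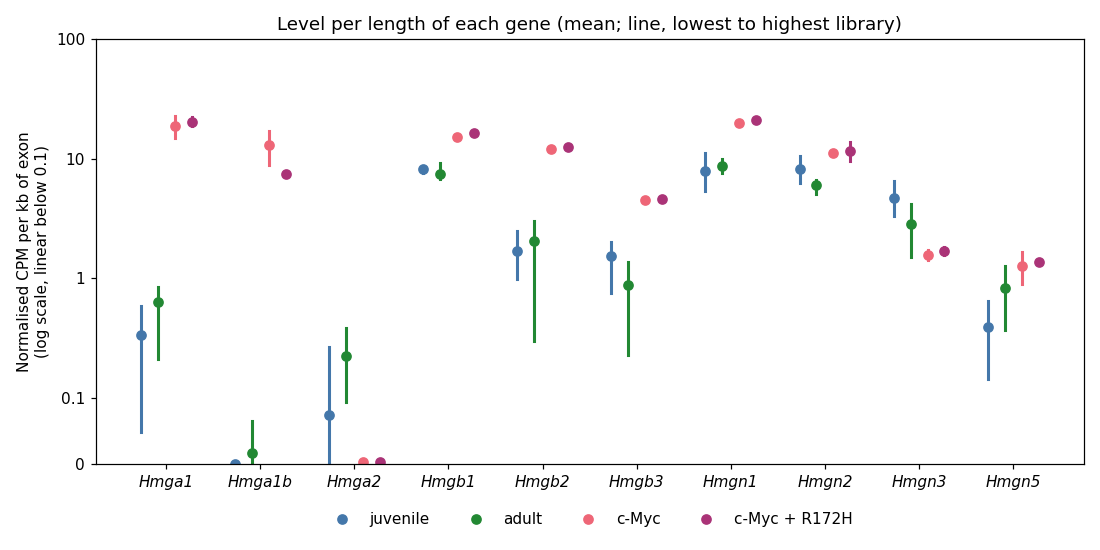
Mean normalised CPM per kb of exon (vertical axis, log scale above 0.1 and linear below it) of each gene in the 4 groups; vertical lines run from the lowest to the highest library. *Hmgn1* and *Hmga1* reached 20.0 and 18.8 CPM per kb with *c-Myc*, whereas *Hmga1* was at 0.334 in juvenile osteoblasts, and *Hmga2* was near 0 in both groups with *c-Myc*.

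By family, the summed HMGB genes were at 46.9 to 53.5 CPM in juvenile, 38.1 to 55.8 in adult, 121 and 123 in *c-Myc* and 126 to 134 in *c-Myc* + *R172H* libraries. The summed HMGN genes were at 51.8 to 77.2, 50.0 to 57.5, 103 to 104 and 106 to 112 CPM in the same order. The summed HMGA genes were at 0.309 to 3.06, 1.92 to 4.40, 59.4 to 62.7 and 51.0 to 59.6 CPM. The HMGA family was thus the least abundant in juvenile and adult libraries and came within a few fold of the others in libraries with *c-Myc*.

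Other genes of HMG biology were described by lists, and no list was tested as a set. Of all genes tested, 18.4% were called higher and 16% lower with *c-Myc* over juvenile osteoblasts, with a median of 0.037 (log2). With *c-Myc* + *R172H* over juvenile osteoblasts the shares were 19.6% and 17.9%, and between ages 1.89% and 3.23%. These shares stand beside the counts of every list below. Of 17 further HMG-box genes, 14 were tested, and 3 were called higher and 1 lower when *c-Myc*-induced were compared with juvenile osteoblasts, and the median of the 14 was 0.22 (log2). The FACT subunits *Supt16* (1.74 ± 0.14, SE) and *Ssrp1* (1.62 ± 0.09), which move nucleosomes aside for polymerases, and the mitochondrial HMG-box protein *Tfam* (1.29 ± 0.22) were higher. *Tox*, an HMG-box gene known from T cells, was lower (-2.23 ± 0.62). With *c-Myc* + *R172H* the counts over juvenile osteoblasts were again 3 and 1, for the same genes. Between ages edgeR called 0 of 14 (2 at an unadjusted p under 0.05, 1 called by DESeq2).

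Linker histones, which HMGA and HMGN proteins displace from nucleosomes, were listed under 13 names, of which 7 were found among the genes counted. The list was one of names, so a name that was not found does not mean that a gene is missing. With *c-Myc*, 4 of the 7 were called higher and 1 lower, where 18.4% and 16% of all genes were. Their median was 1.27. *Hist1h1b* (2.84 ± 0.15), *Hist1h1a* (2.75 ± 0.15) and *Hist1h1d* (2.52 ± 0.19), histones made in S phase, were higher. *H1f0*, the variant of resting and differentiated cells, was lower (-1.62 ± 0.15). Over juvenile osteoblasts *c-Myc* + *R172H* again gave 4 and 1. Between juvenile and adult osteoblasts *Hist1h1c* (-0.73 ± 0.15, adjusted p = 0.0098) and *Hist1h1e* (-0.70 ± 0.18, adjusted p = 0.032, both edgeR) were lower in juvenile libraries, 2 of the 7.

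The partners of HMGB2 in the SET complex were tested for 4 of 5 genes, *Trex1* being listed at 0. *Apex1* (2.54 ± 0.21), a DNA repair endonuclease, *Set* (2.38 ± 0.10), a histone chaperone, and *Anp32a* (1.31 ± 0.17) were called higher with *c-Myc*. These were 3 of the 4, where 18.4% of all genes were called higher. The same 3 were called higher with *c-Myc* + *R172H* over juvenile osteoblasts, where 19.6% of all genes were. Between ages 0 of 4 were called by edgeR or DESeq2 (1 at an unadjusted p under 0.05).

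Genes that share with *Hmga2* the fetal pattern kept down by *let-7* were called in either direction. Of 10 listed, 7 were tested with *c-Myc*, and *Igf2bp2*, an mRNA-binding protein and a known HMGA2 target, was higher (1.92 ± 0.31, from 7.42 to 28.5 CPM on average). *Igf2bp1* was called lower, from a mean of 1.28 CPM to 0.0456 CPM, a level under the floor. *Lin28a* and *Lin28b*, which block *let-7* processing, held 0 CPM in juvenile, adult and *c-Myc* libraries. Between ages 0 of 6 were called by edgeR or DESeq2 (1 at an unadjusted p under 0.05).

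Receptors and partners of extracellular HMGB1 gave 0 higher and 3 lower of 7 tested with *c-Myc* by edgeR. Of all genes 18.4% were called higher and 16% lower, and DESeq2 gave the same counts for the list. *Cd24a* (-2.84 ± 0.20), which restrains the response to HMGB1, *Thbd* (-2.53 ± 0.61), which binds it, and the receptor *Tlr4* (-2.0 ± 0.45) were lower. *Ager*, the receptor RAGE, averaged 0.560 CPM in juvenile and 1.03 CPM in *c-Myc* libraries and did not pass the test. Over juvenile osteoblasts *c-Myc* + *R172H* gave 4 lower, and between ages *Thbd* was lower in juvenile libraries (-1.37 ± 0.36, adjusted p = 0.034, edgeR), 1 of 5 tested. Adding *R172H* to *c-Myc* changed 0 genes in each of these lists by edgeR and by DESeq2, with 1 linker histone and 1 HMGB1 partner at an unadjusted p under 0.05.

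The genes whose pattern over the 12 libraries was nearest to a member were found by the root mean square difference of centred log2(CPM + 0.5) among 12995 genes, as a description. Nearest to the *Hmga1* and *Hmga1b* sum were *Dpf1*, *Chchd10* and *Adgrv1*, with differences of 0.72, 0.73 and 0.76 on the log2 scale. The pair had few reads in juvenile and adult libraries, so its distances cannot be set against those of *Hmgb2* on equal terms. Nearest to *Hmgb2* were *Ppat*, *Dhodh* and *Brca1*, at 0.25, 0.27 and 0.28, and the first 2 encode enzymes of purine and pyrimidine synthesis. For *Hmga2* they were *Paqr8*, *Syt3* and *Gpr137b*, at 0.28 to 0.41, and for *Hmgn5* they were *Cxadr*, *Hlcs* and *Gm14137*, at 0.26 to 0.32. In both cases few reads set the distance.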

How the data were processed

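The authors deposited 1 table of raw counts, not normalised, for 12 libraries. They used cutadapt 4.6 for trimming, STAR 2.7.11a for alignment (mm10) and HTSeq 2.0.5 for counting reads with a unique position, and tested genes with DESeq2.

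Groups and replicate numbers were taken from the titles. P-values measure the spread between libraries. The sources call the samples pooled osteoblasts but do not give the number of mice behind each *c-Myc* or *c-Myc* + *R172H* library. *Xist* differed between the replicates of both these groups, so they were not repeats of 1 sample. All replicate pairs differed by more than sampling noise (chi-square per degree of freedom 5.45 to 136 over 14 pairs). Tests used edgeR 4.0.16 in R 4.3.3: default expression filter, TMM factors and the robust quasi-likelihood F test, with p-values adjusted over all genes (Benjamini-Hochberg, 0.05). Age was fitted on 8 libraries; the comparisons with *c-Myc* shared a fit of 8 libraries, and against juvenile libraries a log2 fold change of 1 or more in either direction was also required. SEs are approximate: the size of the log2 fold change over the root of F. For the sum, the rows of the *Hmga1* pair were replaced by their added counts and the table was fitted again. CPM used TMM factors from all 12 libraries. DESeq2 1.42.0 was an alternative. The procedure was tested on simulated data.

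The members and lists were chosen with earlier results of these data known. Besides the members, at most 3 called genes with the widest change were named per list and comparison; *Sp7*, *Runx2*, *Ptprc*, *Xist*, *Ager*, *Trex1*, *Lin28a* and *Lin28b* were chosen after their values were seen. Gene coordinates and lengths came from GENCODE vM21 and promoters from RefSeq; the protein motifs planned were not searched.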

Additional observations from a re-analysis of the deposited data

Results flagged for a closer look

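In groups of 4 libraries the highest or lowest value was set against the gap to its nearest neighbour (Dixon's test at 95%), over 27 combinations of gene or family and group. A gap past the limit was found in 3 of them. For *Hmga1b* the limit is passed by construction, since the other 3 libraries tied at 0, and for the rest chance gives about 1 in 20. *Hmga2* in juvenile libraries was at 1.81 CPM in replicate 3 and at 0, 0.206 and 0 CPM in the others. *Hmgb1* in adult libraries was at 45.8 CPM in replicate 4 and at 34.2 to 34.9 CPM in the others. *Hmga1b* in adult libraries was at 0.107 CPM in replicate 4, which is 1 count, and at 0 in the others.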

How the results depend on the processing

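For age and for *R172H* added to *c-Myc*, 0 members were called in either direction under all 17 and 18 alternatives. With at least 10 counts in every library, members called higher over juvenile libraries went from 6 to 3 (*c-Myc*) and from 7 to 4 (*c-Myc* + *R172H*). Fewer members were tested there, and 1627 and 1707 of 9647 genes were called higher. With library totals 8 members were called higher in both, where 5234 and 6264 of 12588 genes were. Members called lower then went from 1 to 0 in both, where 700 and 868 genes were called lower. Leaving out single libraries gave 5 to 6 and 5 to 7 members called higher, beside 1899 to 2403 and 2011 to 2543 of all genes. Where called, *Hmga1*, *Hmga1b* and *Hmgn5* are part of these counts, and they passed the default filter only through libraries with *c-Myc*. The log2 fold change of the summed *Hmga1* pair ran from 6.44 to 7.90 and from 6.32 to 7.78, for a row that entered the fit through libraries with *c-Myc*. With *R172H* added, which is far from the threshold for every member, the sum was 0.10 with library totals and *Hmga1* was -0.11 when summed with *Hmga1b*. Leaving out single libraries there moved *Hmga1* from -0.16 to 0.46, *Hmgb2* from -0.0036 to 0.13, *Hmgn2* from -0.22 to 0.31, *Hmgn3* from -0.025 to 0.27 and *Hmgn5* from -0.26 to 0.61. *Hmgb1* between ages was -0.14 with library totals.

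Counts over all genes moved more. For age (214 higher, 367 lower) library totals gave 53 and 793, no filter 399 and 578, all 12 libraries 461 and 633, DESeq2 372 and 628, and single libraries left out 85 to 344 and 199 to 541. With library totals *c-Myc* over juvenile gave 5234 and 700 and *c-Myc* + *R172H* over juvenile 6264 and 868. For *R172H* added (1 higher, 58 lower) no filter gave 14 and 208, all 12 libraries 0 and 22, the compared groups alone 189 and 440, DESeq2 7 and 185, library totals 11 lower, and single libraries left out 0 to 3 and 7 to 84. The cause of these shifts was not tested.

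Libraries with equal replicate numbers were not treated as pairs. Correlations of their deviations ran from -0.066 to 0.044 for age. Between *c-Myc* and *c-Myc* + *R172H* the correlation was 0.16, a single value since each group has 2 libraries, and *Xist* was high in replicate 2 of both groups. A replicate block gave 166 and 268 genes for age and 30 and 296 for *R172H* added, and called 0 members in both. In the *c-Myc* groups 2 libraries a group limit what can be detected, and *Hmga2*, *Hmga1* and *Hmga1b* had too few counts without *c-Myc* for a close comparison of ages.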
